A study of Mus musculus with 30 samples.

Results

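Preputial glands of mice with a combined knockout of Cyp1a1 and Cyp1b1 (DKO) were compared with glands of mice with a knockout of Cyp1a1 alone (KO), while both were fed benzo[a]pyrene (BaP), a carcinogen formed in combustion. The comparison took the 8 arrays labelled Cyp1a1/1b1 DKO and the 8 labelled Cyp1a1 KO at weeks 4, 8, 12 and 16 of the diet, 16 of the 30 arrays of the series, with 2 arrays for each genotype and week. The animals were males on the B6 background, put on the diet at 6 weeks of age, and they took in about 12.5 mg/kg/day of BaP with corn oil on the food. Per the labels' protocols each group had 15 mice killed and glands of 2 of them were used for RNA, which was amplified with the Ovation Pico system before labelling. Every animal compared here lacked Cyp1a1 and received BaP, so by label the groups differed in the Cyp1b1 deletion alone. Wild-type arrays and arrays of week 0 were not used in the comparison. The series followed squamous cell carcinoma forming in the duct of this gland, and the present contrast asks what the loss of Cyp1b1 adds to the loss of Cyp1a1 under the same exposure.

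The products of Cyp1a1 and Cyp1b1 are cytochrome P450s; they oxidise BaP and related polycyclic aromatic hydrocarbons, steps that can clear these compounds or turn them into forms that bind DNA. Their genes are switched on by the aryl hydrocarbon receptor (AhR), a ligand-activated transcription factor that pairs with ARNT and binds a short DNA core, GCGTG, and BaP itself is a ligand. The preputial gland is a modified sebaceous gland whose lipid-filled secretory cells empty into a duct lined by keratinising squamous epithelium, so a dissected gland holds both kinds of cell. Some markers of the labelled tissue were well expressed in both genotypes, and others were not. The 10 measured preputial and sebaceous gland markers had a median level of 5.41 log2 in KO and 5.25 in the arrays labelled DKO, near that of all genes (5.39 and 5.36). The 27 measured genes of sebaceous lipid synthesis stood at 7.15 and 6.21. Scd1, a fatty acid desaturase of sebaceous cells, lay between 12.31 and 12.93 log2 in KO and between 10.31 and 12.57 in the arrays labelled DKO, and Krt79, a keratin of sebaceous ducts, at 9.71 to 10.36 and 8.25 to 10.88. Krt14, a keratin of basal epithelial cells, lay at 8.94 to 9.59 and 8.72 to 9.68.

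The arrays of the genotypes differed in a technical property that has to be read beside every result. The standard deviation of all log2 values on an array lay between 1.76 and 1.97 in 7 of 8 KO arrays and between 1.15 and 1.42 in 7 of 8 arrays labelled DKO. The exceptions both fell at week 12, where KO replicate 2 was narrow (1.35) and DKO replicate 2 was wide (1.70), taking 1.5 as the limit between narrow and wide. The numbers in the array labels split almost as the genotypes do, at 11, 14 to 19 and 30 for KO and 22 to 28 and 33 for DKO. Across genes, which are not independent replicates, wide KO arrays correlated with one another at a median of 0.979, and narrow DKO-labelled arrays with one another at 0.785. DKO week 16 replicate 1 correlated with the other 6 narrow DKO-labelled arrays at a median of 0.698. At week 12 the narrow KO array, set against the wide KO array, read over 1 log2 lower for 2406 genes and over 1 log2 higher for 2191. All values below were quantile-normalized over the 16 arrays, which gives every array the same distribution. Many of the findings, but not all, are set against the week 12 pairs of like range, wide DKO against wide KO and narrow DKO against narrow KO. Each pair is 1 array against 1 array and is given as a description.

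**Figure D1:**
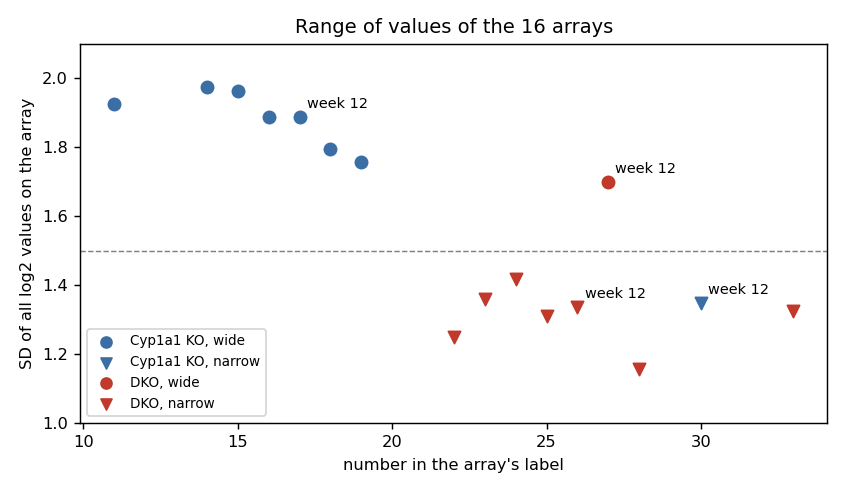
Each point is 1 of the 16 arrays, with the number in its label on the x axis and the standard deviation of all its deposited log2 values on the y axis; circles are wide-range and triangles narrow-range arrays, and the dashed line marks 1.5. Only the week 12 groups hold arrays on both sides of the line, with KO replicate 2 at 1.35 and DKO replicate 2 at 1.70.

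Averaged over the 4 weeks, genes of the cornified layer of skin, epithelial antimicrobial proteins and several AhR-responsive genes were higher in the arrays labelled DKO, and genes of lipid and sterol synthesis were lower. Of 18784 genes tested with limma, 918 (4.89%) were higher and 1563 (8.32%) lower at a Benjamini-Hochberg adjusted p under 0.05, the rule for a called gene throughout, and the median difference over all genes was 0.02 log2. The genes called lower were well expressed in KO, with a median level of 7.06 log2 against 5.39 for all genes, and 1326 of the 1563 also read lower in the narrow than in the wide KO array of week 12. Of the 918 called higher, 645 read higher in that narrow KO array. Without quantile normalization 9314 genes were called, and with the narrow or wide range of each array as a covariate 9 were, in a fit whose range offset rests on the week 12 arrays. The 9 held Krt1, Krt10, Rptn, Defb4, Cyp1b1 and Tiparp, each higher. With the label number range as a covariate 3 genes were called, Rptn and Hrnr higher and Vmn2r50, named after its value was seen, lower. Range and genotype therefore cannot be told apart outside week 12. The count also moved with single arrays. It was between 1339 and 1433 without any 1 of the KO arrays of weeks 4, 8 and 16, 1618 without KO week 12 replicate 1, 1643 without DKO week 12 replicate 1 and 3882 without DKO week 16 replicate 2. Bulk arrays also cannot tell fewer cells of a type from less RNA per cell.

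The targeted genes came first. Cyp1b1 lay at 7.78 to 8.36 log2 in the 8 KO arrays (median 8.05) and at 10.25 to 10.67 in the 8 arrays labelled DKO (median 10.47). All 8 arrays labelled for the Cyp1b1 knockout thus read above all 8 KO arrays, by 2.40 ± 0.18 log2 (SE), a 5.29-fold difference with a limma adjusted p of 3.54e-06. The differences at weeks 4, 8, 12 and 16 were 2.72, 2.51, 2.15 and 2.23, and the week 12 pairs differed by 2.06 (wide) and 2.24 (narrow). The signal of this probe set goes against the label. No source used here says whether its probes fall inside the deletion, and probes outside it would check nothing, so the groups are called by their labels throughout. Cyp1a1, deleted in both genotypes, lay at 4.09 to 4.78 in KO and 3.55 to 6.32 in the arrays labelled DKO, a difference of 0.16 ± 0.34 (adjusted p = 0.801).

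Besides Cyp1b1, 3 other measured genes of the 12 in the AhR list were higher, against 4.89% of all genes, and none was lower, with a list median of 0.48. In the week 12 pairs 6 of the 12 were higher in both, the 4 called genes among them, and 3 lower in both, against 25.6% and 26.7% of all genes. Tiparp, an ADP-ribosyltransferase that represses AhR and is among its direct targets, lay at 5.68 to 7.41 in KO and 7.36 to 9.45 in the arrays labelled DKO, higher by 1.77 ± 0.27 (adjusted p = 0.00145). The Tiparp ranges overlapped by a single DKO-labelled array, week 16 replicate 2, and the week 12 pairs differed by 2.54 (wide) and 2.38 (narrow). Aldh3a1, an aldehyde dehydrogenase, was higher by 1.10 ± 0.27 (adjusted p = 0.0144). Nqo1 encodes a reductase that detoxifies quinones, and it was higher by 1.03 ± 0.26 (adjusted p = 0.0181). Both had overlapping ranges and read higher in each week 12 pair, and the Nqo1 call was lost without KO week 16 replicate 2 (adjusted p = 0.0516). Ahrr, the AhR repressor, differed by 0.56 (adjusted p = 0.195), Ahr itself by -0.18 and its partner Arnt by -0.19, and none of these was called.

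The promoters of 3 of the 4 called AhR genes are shown because the 5-base core that AhR and ARNT bind can be looked for in them. No promoter was found for Aldh3a1, the remaining called gene. RefSeq promoters (build GRCm38.p6) were found for 9 of the 12 measured genes, and the 250 bases before the start are printed 5′ to 3′ on the gene's strand, with GCGTG or its reverse complement CACGC in capitals. Cyp1b1 is on the minus strand (chr17:79715062-79715311), Tiparp on the plus strand (chr3:65528197-65528446) and Nqo1 on the minus strand (chr8:107403206-107403455).
Cyp1b1: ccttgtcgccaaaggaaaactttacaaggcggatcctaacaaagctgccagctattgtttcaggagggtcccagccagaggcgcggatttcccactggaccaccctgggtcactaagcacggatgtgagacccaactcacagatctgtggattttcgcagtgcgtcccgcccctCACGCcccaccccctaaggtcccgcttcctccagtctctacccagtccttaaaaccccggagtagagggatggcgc
Tiparp: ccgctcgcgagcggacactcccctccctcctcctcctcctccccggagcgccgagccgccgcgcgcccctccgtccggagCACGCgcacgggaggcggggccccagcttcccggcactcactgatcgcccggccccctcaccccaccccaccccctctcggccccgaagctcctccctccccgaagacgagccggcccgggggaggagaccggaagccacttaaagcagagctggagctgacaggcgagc
Nqo1: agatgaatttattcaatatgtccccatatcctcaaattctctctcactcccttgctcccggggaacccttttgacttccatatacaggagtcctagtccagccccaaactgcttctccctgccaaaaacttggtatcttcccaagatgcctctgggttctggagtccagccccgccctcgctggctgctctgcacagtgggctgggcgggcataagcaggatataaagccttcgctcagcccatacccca
The Cyp1b1 window held 1 match, beginning 76 bases before the start, and the Tiparp window 1 match, beginning 170 bases before it. The Nqo1 window held 0. Over the 9 genes with a promoter 6 held a match, among them Cyp1a1, Ahrr, Arnt and Lrat, which were not called, and of all 32851 RefSeq promoters 28.2% held one in the same 250 bases. A match describes the letters of this window and nothing about binding.

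Keratins of the upper, differentiating layers of stratified epithelium showed some of the widest separations. Krt1 and Krt10 form the keratin pair of suprabasal epidermis. Krt1 lay at 4.29 to 4.62 in all 8 KO arrays, below the KO median of all genes (5.39). In the arrays labelled DKO it was 4.64 and 7.27 at week 4, 9.74 and 11.14 at week 8, 11.09 and 9.93 at week 12, and 11.25 and 10.36 at week 16. Thus every DKO-labelled array from week 8 onward stood over 5 log2 above every KO array, and the week 4 arrays stood between. The mean difference was 4.93 ± 0.35 (adjusted p = 2.63e-06), a 30.5-fold difference. Krt10 lay at 6.36 to 7.17 in KO and was 8.81 and 8.71 at week 4, 10.22 and 10.98 at week 8, 11.38 and 10.37 at week 12, and 11.15 and 10.42 at week 16 in the arrays labelled DKO, higher by 3.63 ± 0.22 (adjusted p = 7.33e-07). The Krt1 difference in the week 12 pairs was 5.32 (wide) and 6.60 (narrow), and that of Krt10 was 3.88 and 4.21, while the narrow KO array differed from the wide one by -0.12 for Krt1 and 0.68 for Krt10. With array range as a covariate, both remained called, at 4.54 (adjusted p = 0.0205) and 2.99 (adjusted p = 0.00962). Of the 16 measured suprabasal keratin and desmosome genes only Krt1, Krt10 and Dsc1 were called, against 4.89% of all genes called higher, and the list median was 0.22. Dsc1, a desmosomal cadherin of the upper layers, differed by 1.29 ± 0.25 (adjusted p = 0.00461). Krt4 and Krt13, keratins of moist epithelia, were among those not called, at -0.09 and 0.27.

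**Figure D2:**
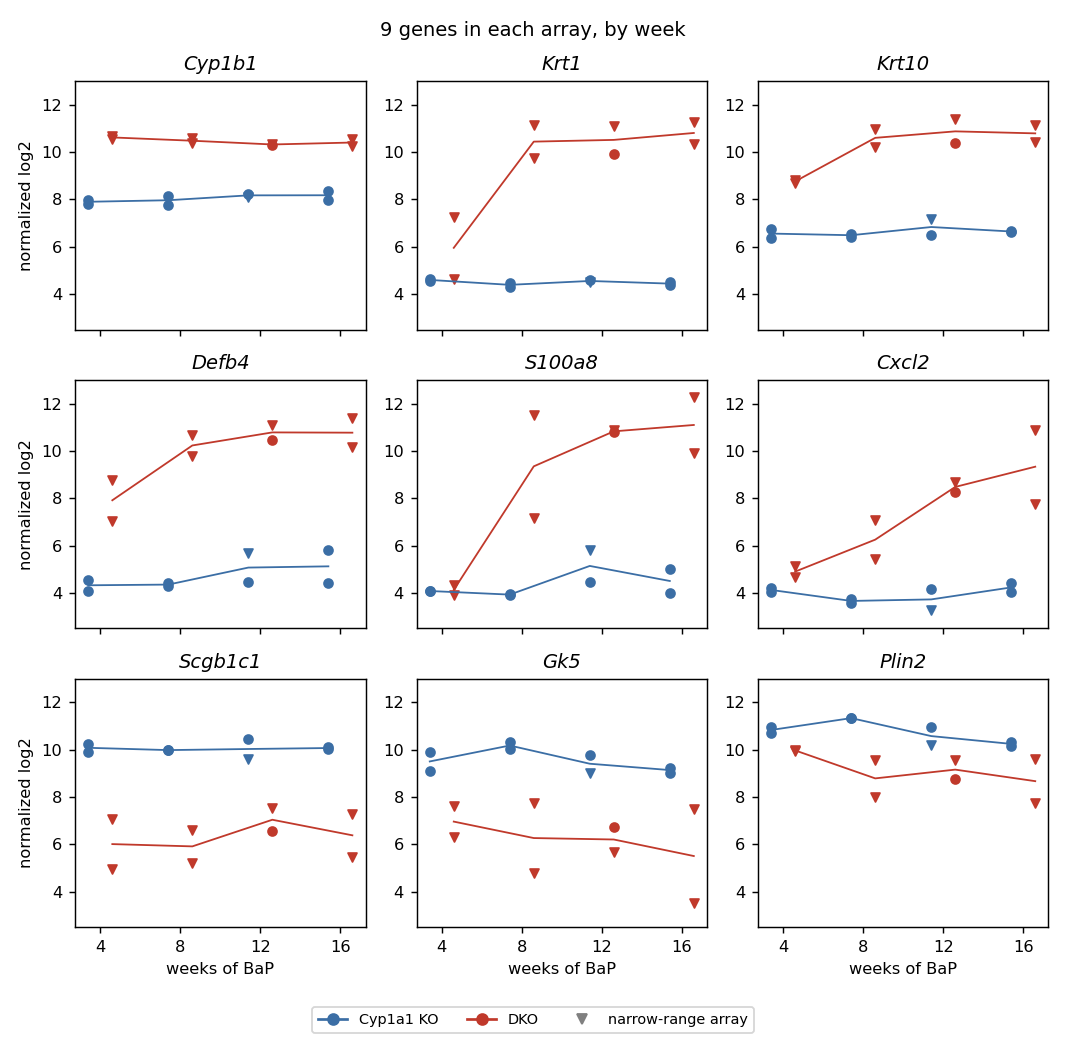
Normalized log2 level of 9 genes in each array against weeks of BaP, with KO arrays in blue and arrays labelled DKO in red, shifted slightly apart; lines join the means of 2 arrays and triangles are narrow-range arrays. Cyp1b1 was apart at every week, Krt1, S100a8 and Cxcl2 were closer to KO at week 4 than at any later week, and Scgb1c1, Gk5 and Plin2 were below KO in all 8 arrays labelled DKO.

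The cornified envelope, the protein shell that replaces the membrane of a dying keratinocyte, gave the list with the highest number of called genes. Of 33 measured genes 24 were higher, against 4.89% of all genes, 1 was lower, and the list median was 1.38. With array range as a covariate the median was 1.43, although 1 of the 33 was then called. The mean level of the list lay at 6.17 to 6.61 in the KO arrays and at 7.05 to 9.26 in the arrays labelled DKO. In the week 12 pairs of like range the medians were 1.85 (wide) and 1.60 (narrow), and 26 of the 33 genes were higher in both pairs, against 25.6% of all genes. Sprr2d, a small proline-rich protein cross-linked into the envelope, lay at 4.99 to 6.65 in KO, at 6.67 and 5.22 in the DKO-labelled arrays of week 4 and at 8.85 to 11.57 later, with a mean difference of 3.90 ± 0.41 (adjusted p = 0.000114). Sprr2b was higher by 3.93 ± 0.51 and Sprr1b by 3.34 ± 0.56. Rptn, or repetin, a fused S100-type matrix protein, lay at 4.24 to 7.78 in KO and 9.32 to 11.38 in the arrays labelled DKO, with no overlap (3.45 ± 0.37, adjusted p = 0.000121). The lowest KO value of Rptn was the narrow week 12 array, 3.16 below its wide partner, and without that array all KO values were between 6.47 and 7.78. Hrnr, or hornerin, of the same protein family, was higher by 2.77 ± 0.38 and had the same low reading, 3.06 below its partner. Cnfn, or cornifelin, lay at 5.30 to 6.64 in KO and 7.58 to 9.62 in the arrays labelled DKO (2.70 ± 0.26), already apart at week 4 at 8.15 and 7.58. Lce1a2, a late cornified envelope protein, was higher by 2.31 ± 0.36, from a KO level of 3.32 to 4.15 near the bottom of the array.

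Not every envelope gene moved. The 8 not called held Lor, or loricrin, the main envelope protein of skin (1.01 ± 0.49, with DKO-labelled arrays spread from 4.61 to 8.94), the cross-linking enzyme Tgm1 (0.74), and Sprr1a, which was already at 12.5 on average in KO and differed by 0.38. Sprr4 was the exception, at 11.28 to 12.19 in KO and lower by 1.67 ± 0.43. Its DKO-labelled arrays ranged from 5.39 to 11.58, and its difference of -4.08 at week 16 was the most negative of the 4 weeks. The Sprr4 call was lost without KO week 12 replicate 1 (adjusted p = 0.0542).

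**Figure D3:**
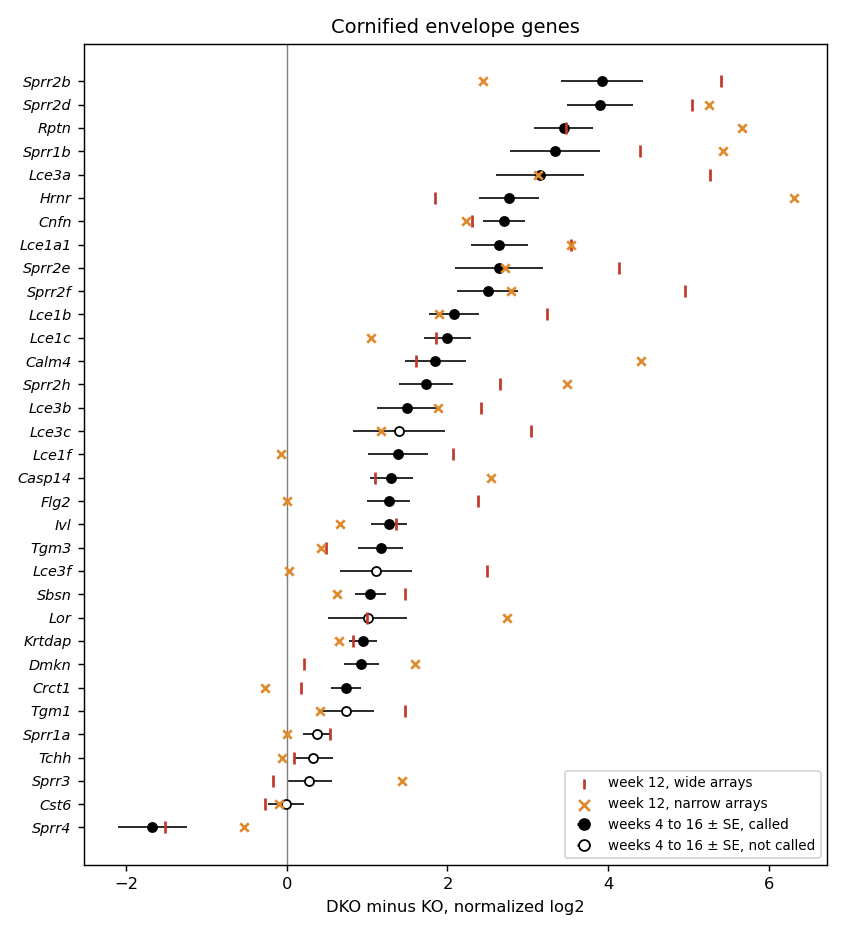
Difference of DKO minus KO for the 33 measured cornified envelope genes in normalized log2, as the mean over weeks 4 to 16 with its standard error (filled points are called, open points are not) and as the single week 12 differences between wide arrays (red bars) and between narrow arrays (orange crosses). Differences run from -1.67 for Sprr4 to 3.93 for Sprr2b, and 26 of 33 genes have both week 12 marks above 0.

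Many of these genes are neighbours. In the RefSeq gene order, the epidermal differentiation complex between S100a1 and S100a11 held 99 genes, of which 59 were measured. Of the 59, 32 were higher (54.2%, against 4.89% of all genes), 3 were lower, and the median was 1.11. They comprised 10 Lce1 genes, 3 Lce3 genes, 7 Sprr2 genes, Sprr1b, Ivl, Kprp, Crct1, Flg2, Hrnr, Rptn, Tchhl1 and the S100 genes S100a6, S100a8, S100a9 and S100a11, and the lower ones were S100a1, Pglyrp4 and Sprr4. At week 12, 43 of the 59 were higher in both pairs of like range (72.9%, against 25.6% of all genes). Genes of the Sprr2, Lce1 and Lce3 families are near-identical copies whose probes may read one another, so their count is not a count of independent genes. Among clade B serpins between Serpinb3a and Serpinb2, 5 of 6 measured genes were higher. The keratin clusters did not share this, with 3 of 25 genes higher in the type II cluster and 2 of 35 in the type I cluster.

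Proteases and inhibitors that govern shedding of the cornified layer were higher in part. Of 18 measured, 8 were higher and 1 lower (median 0.44), against 4.89% and 8.32% of all genes. Serpinb3a, a serpin of squamous epithelium, lay at 2.49 to 4.18 in KO with a median of 2.88 and had a median of 6.70 in the arrays labelled DKO, the lowest of which was 2.74, higher by 3.49 ± 0.52 (adjusted p = 0.00127). Tmprss11d, an airway and squamous serine protease, was higher by 2.38 ± 0.37 with no overlap between groups. The kallikreins Klk6 and Klk7 were higher by 1.74 ± 0.24 and 1.45 ± 0.20, and Klk7, the chymotryptic enzyme of the cornified layer, was called at week 4 alone as well, by 2.33. Klk12 was the member called lower, by 0.86. Of 6 measured stefins, small inhibitors of cysteine cathepsins, 4 were higher and 1, Cstb, was lower (-0.89). Stfa1 lay at 6.91 to 10.27 in KO and 8.23 to 12.57 in the arrays labelled DKO (3.17 ± 0.31, adjusted p = 6.47e-05), and its KO level was itself higher at week 16 (10.27 and 8.91) than at week 4 (6.91 and 7.12). Csta1 lay at 4.65 to 6.07 and 7.31 to 9.06 with no overlap (2.71 ± 0.27). Stfa3 was higher by 2.37 ± 0.24 and Stfa2l1 by 2.11 ± 0.40, although Stfa2l1 was lower by 0.50 in the narrow pair of week 12. Stefin A genes are close copies and may share probe signal.

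Among the 15 epithelial antimicrobial genes 8 were higher and 0 lower (median 0.99), against 4.89% and 8.32% of all genes. Defb4, an inducible beta-defensin, showed the largest called difference of the comparison among genes without overlap. It lay at 4.08 to 5.83 in KO and, in the arrays labelled DKO, at 8.77 and 7.06 at week 4, 9.79 and 10.66 at week 8, 11.11 and 10.45 at week 12, and 11.39 and 10.15 at week 16. All 8 of these exceeded the highest KO value, and the difference was 5.21 ± 0.32 (36.9-fold, adjusted p = 7.33e-07), with 5.98 in the wide and 5.45 in the narrow pair. Defb6, at 7.76 to 10.96 in KO, lay within 11.13 to 12.13 in the arrays labelled DKO, a difference of 2.31 ± 0.22 that was 3.23 at week 4 and 1.25 at week 16. S100a8 and S100a9 form calprotectin, a calcium-binding antimicrobial dimer of neutrophils and stressed keratinocytes. S100a8 lay at 3.91 to 5.83 in KO, at 3.91 and 4.34 in the DKO-labelled arrays of week 4, at 7.18 and 11.52 at week 8, and at 9.91 to 12.28 at weeks 12 and 16. The S100a8 difference averaged 4.44 ± 0.51 (adjusted p = 0.000214) and was 0.05 at week 4, where the groups overlapped. S100a9 followed with 3.99 ± 0.66. Saa3, an acute-phase serum amyloid A made in inflamed tissue, was higher by 2.32 ± 0.37 in all, at -0.31, 0.91, 3.40 and 5.28 in the successive weeks. Among the 7 not called were Defb1 at -0.65, Lcn2 at -0.10 and Lyz2 at 0.40.

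Cytokines and chemokines of epithelial inflammation were higher in a few members. Of 13 IL-1 and IL-36 family genes 3 were higher and 0 lower (median 0.40), against 4.89% and 8.32% of all genes. In both week 12 pairs 10 of the 13 were higher, against 25.6% of all genes. Il1f8 and Il1f9, the older symbols of IL-36 cytokine genes, were higher by 1.60 ± 0.25 and 2.17 ± 0.36, and Il1b by 1.86 ± 0.35. Il1b lay at 4.54 to 5.56 in all KO arrays, at 5.33 and 6.37 at week 4 and 5.03 and 7.85 at week 8 in the arrays labelled DKO, and at 7.87 to 9.07 at weeks 12 and 16. The IL-1 antagonist Il1rn (0.14) and Il1a (0.81) were not called. Cxcl2, a chemokine that draws neutrophils, lay at 3.28 to 4.41 in KO and 4.67 to 10.89 in the arrays labelled DKO with no overlap (3.30 ± 0.38, adjusted p = 0.000214), with differences of 0.78, 2.59, 4.75 and 5.10 in the successive weeks.

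The neutrophil list, which holds Cxcl2, had 7 of 21 genes higher and 1 lower (median 0.35), against 4.89% and 8.32% of all genes. Its mean level was 4.60 to 4.83 in KO and 4.74 to 6.17 in the arrays labelled DKO. Fpr2, a formyl peptide receptor of phagocytes, was higher by 1.76 ± 0.27, at -0.56 at week 4 and 3.78 at week 16, and Mmp8, neutrophil collagenase, by 1.59 ± 0.21. Of the 21 genes 18 had a positive difference, and 13 were higher in both week 12 pairs, against 25.6% of all genes. Defining granulocyte markers were at low levels in both genotypes. Ly6g lay at 3.04 to 4.77 in KO and 2.97 to 4.81 in the arrays labelled DKO, Ngp at 3.51 to 4.52 and 2.85 to 4.73, and Csf3r at 3.16 to 4.22 and 3.44 to 5.35, where the tenth percentile of all genes in KO was 3.84. Csf3r was higher in both week 12 pairs, by 0.31 and 1.01, and Ly6g and Ngp were not. The member called lower was Ltf, or lactoferrin, which gland epithelium also secretes. It lay at 7.33 to 10.32 in KO and 4.23 to 6.41 in the arrays labelled DKO, without overlap (-2.62 ± 0.27, adjusted p = 0.000114), and was lower in both week 12 pairs, by -1.86 and -2.52. Of 14 macrophage genes 3 were higher and 0 lower (median 0.31), and 10 were higher in both week 12 pairs. C1qc, a complement subunit made by macrophages, was higher by 1.46 ± 0.25, the scavenger receptor Msr1 by 1.64 ± 0.37 and C1qa by 0.90 ± 0.22. The macrophage list's mean level overlapped between genotypes, at 5.33 to 6.38 in KO and 5.69 to 6.95 in the arrays labelled DKO. The part of neutrophils or macrophages in these results was not tested.

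Lymphocyte genes gave 4 of 15 higher and 0 lower (median 0.48), against 4.89% and 8.32% of all genes. Among the 4 were the T cell genes Cd8b1 (1.39 ± 0.37) and Cd2 (0.85 ± 0.22) and the B cell gene Ms4a1 (0.77 ± 0.20). The calls of Cd8b1, Cd2 and Ms4a1 were lost without any of 5, 6 and 6 single arrays (adjusted p up to 0.0654, 0.0656 and 0.071). Only 2 of the 15 were higher in both week 12 pairs, the narrow KO array exceeded its wide partner by a median of 0.87 over the list, and Ms4a1 was at 3.30 to 4.00 in KO. Stromal genes gave 4 of 16 higher and 0 lower (median 0.48), with 13 of 16 higher in both week 12 pairs, against 25.6% of all genes. Vim, or vimentin, was higher by 1.14 ± 0.24, and the fibrillar collagens Col1a2 by 0.95 ± 0.22 and Col5a2 by 0.86 ± 0.19. Postn, a matrix protein of wounds and tumour stroma, averaged 1.66 ± 0.34 (adjusted p = 0.00639) and ran from -1.05 at week 4 to 3.37 at week 16. Its DKO-labelled arrays read 9.73 and 9.75 at week 12 and 11.01 and 9.25 in replicates 1 and 2 of week 16. Mmp3, or stromelysin, was higher by 1.70 ± 0.39. Cxcl9, an interferon-induced chemokine, was the only one of 13 interferon genes called (1.46 ± 0.34), and no MHC class II gene of 8 was.

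Basal keratinocyte genes were called about as often as all genes, with 0 of 11 higher and 1 lower, against 4.89% and 8.32%. Their median difference was 0.01. Krt14 differed by 0.01 ± 0.20, Krt5 by 0.34 ± 0.21 and Trp63, the master regulator of stratified epithelium, by 0.06 ± 0.21. Itga6, a hemidesmosomal integrin, was called lower at -1.16 ± 0.36 (adjusted p = 0.046), and its partner Itgb4 differed by 0.58 ± 0.21 (adjusted p = 0.0813). The Itga6 reading of the narrow KO array was 2.37 below its wide partner, and the call was lost without any of 11 single arrays (adjusted p up to 0.13). Of the 10 measured genes of the activated keratinocyte list 3, all wound keratins, were higher (median 0.40), against 4.89% of all genes. Krt6b, at 3.58 to 4.43 in KO, was 4.56 and 3.24 in the DKO-labelled arrays of week 4, 4.65 and 9.48 in those of week 8 and 7.80 to 9.98 in those of weeks 12 and 16 (3.35 ± 0.54). Krt6a (1.45 ± 0.33) and Krt16 (1.16 ± 0.27) were also higher, and all 3 overlapped between groups. Proliferation genes were lower in part, with 0 of 28 higher and 6 lower (median -0.28), against 8.32% of all genes. Ccna2 was lower by 1.01 ± 0.24, Aurkb by 0.98 ± 0.25, Mcm6 by 0.86 ± 0.23 and Rrm2 by 0.83 ± 0.23, whereas Mki67 differed by 0.22 and Top2a by 0.17. In the week 12 pairs 10 of the 28 were lower in both, against 26.7% of all genes, and 3 of the 6 called were. Mcm6 differed by 0.04 (wide) and -0.92 (narrow) and Rrm2 by -1.28 and 0.43. The calls of Aurkb, Mcm6 and Rrm2 were lost without any of 7, 8 and 7 single arrays (adjusted p up to 0.0572, 0.0689 and 0.0791). The p53 response list had 0 higher and 1 lower of 15, near the shares of all genes (4.89% and 8.32%). The lower one was Trp53inp1 (-0.96 ± 0.22), and Gadd45a differed by 0.73 ± 0.25 (adjusted p = 0.0623). Of 18 NRF2 and glutathione genes 3 were higher and 5 lower (median -0.03), against 4.89% and 8.32% of all genes. The list medians in the week 12 pairs were -0.05 (wide) and 0.87 (narrow). All 3 called higher were higher in both pairs, and 2 of the 5 called lower were lower in both. Gpx2 (1.51 ± 0.33) and Cbr3 (1.04 ± 0.24) were higher, and Gsta3 (-1.42 ± 0.28) and Gclm (-0.93 ± 0.21) lower. With array range as a covariate Gpx2 was at 1.47, Cbr3 at 1.35, Gsta3 at -0.27 and Gclm at -0.58, and none was called.

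**Figure D4:**
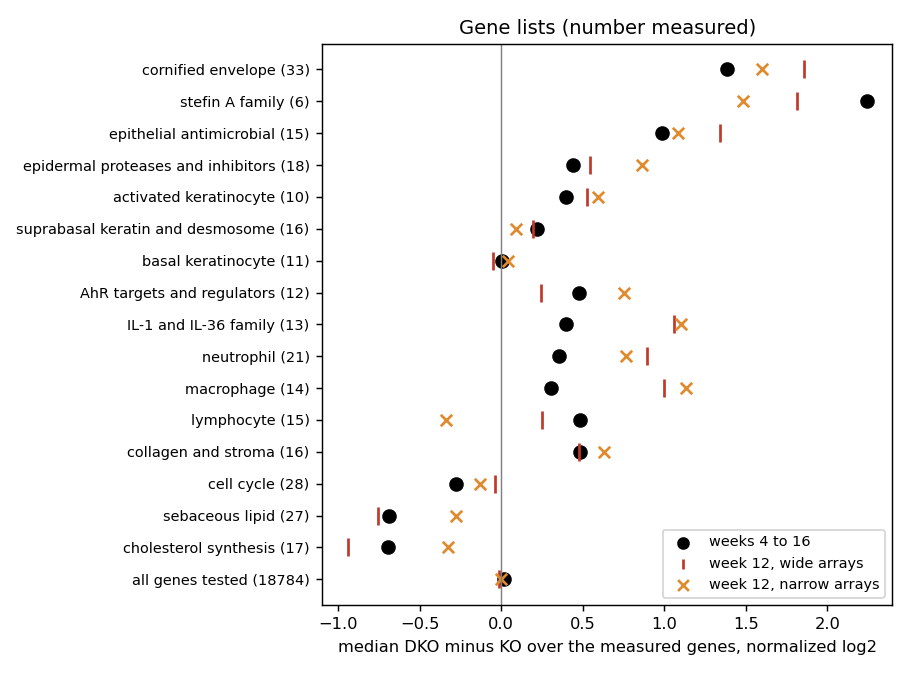
Median DKO minus KO difference over the measured genes of 17 sets in normalized log2, with the number of genes in brackets; black points are the mean over weeks 4 to 16, red bars the wide arrays of week 12 and orange crosses the narrow arrays of week 12. The cornified envelope median is 1.38 overall and 1.85 and 1.60 in the week 12 pairs, the sebaceous lipid median is -0.69 overall and -0.76 and -0.28 in the pairs, and all genes lie near 0.

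Genes of sebaceous lipid synthesis were lower in the arrays labelled DKO. Of 27 measured, 0 were higher and 9 lower, against 8.32% of all genes, with a median of -0.69. The list's mean level lay at 7.17 to 7.77 in KO and 6.04 to 7.29 in the arrays labelled DKO. Over the list the narrow KO array of week 12 differed from its wide partner by a median of -0.33, against -0.03 for all genes. Plin2, the coat protein of lipid droplets, lay at 10.16 to 11.34 in KO and 7.73 to 9.99 in the arrays labelled DKO, with no overlap (-1.60 ± 0.30, adjusted p = 0.00389). Awat2, a wax ester synthase of sebaceous cells, lay at 10.17 to 11.13 and 4.73 to 10.16 (-2.06 ± 0.51, adjusted p = 0.0168), and the value of 4.73 came from DKO week 16 replicate 1. Fasn, fatty acid synthase, was lower by 1.11 ± 0.22, Acacb, an acetyl-CoA carboxylase, by 1.18 ± 0.21 and Elovl3, a fatty acid elongase, by 1.32 ± 0.28. At week 4 Fasn stood at 7.10 and 7.13 in the arrays labelled DKO and 7.27 and 6.95 in KO. The narrow arrays of week 12 gave a smaller list median (-0.28) than the wide arrays (-0.76), and 15 of the 27 genes were lower in both pairs, against 26.7% of all genes. Elovl3 was among those that were not, at -1.87 (wide) and 0.13 (narrow). With array range as a covariate Plin2 was at -1.62, Awat2 at -2.72, Fasn at -0.76, Acacb at -0.81 and Elovl3 at -0.76, and none was called. Without DKO week 16 replicate 1 the list median was -0.42, and without DKO week 16 replicate 2 the number lower was 14.

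Sterol synthesis gave 0 of 17 higher and 7 lower (median -0.70), against 4.89% and 8.32% of all genes. The medians were -0.94 and -0.33 in the wide and narrow pairs, and 11 of the 17 were lower in both, against 26.7% of all genes. Over the list the narrow KO array of week 12 differed from its wide partner by a median of -0.61, against -0.03 for all genes. The part of array range in the list's difference was not tested. The number lower was 4 without KO week 4 replicate 1 or without any 1 of the KO arrays of weeks 8 and 16. Tmem97, a sterol-regulated receptor, lay at 7.43 to 8.53 in KO and 4.71 to 7.62 in the arrays labelled DKO (-2.16 ± 0.28, adjusted p = 0.000529), and differed by -2.07 and -1.77 in the pairs, while the narrow KO array exceeded its partner by 0.33. Msmo1, a methylsterol oxidase, was lower by 1.43 ± 0.24 with no overlap, Lss, lanosterol synthase, by 1.44 ± 0.27 and Sqle, squalene epoxidase, by 1.33 ± 0.31. For Lss and Sqle the narrow KO array read 1.33 and 1.40 below its wide partner. With array range as a covariate Tmem97 was at -2.51, Msmo1 at -1.55, Lss at -0.81 and Sqle at -0.49, and none was called. Of the 10 preputial and sebaceous gland markers 0 were higher and 2 lower (Awat2 and Mc5r), with a median of -0.02.

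The rule for the lowest genes took the 12 most negative differences among called genes whose groups did not overlap. Scgb1c1, a secretoglobin secreted by gland epithelium, lay at 9.59 to 10.47 in KO. In the arrays labelled DKO it was 4.97 and 7.06 at week 4, 5.22 and 6.61 at week 8, 7.53 and 6.55 at week 12, and 5.48 and 7.28 at week 16. No DKO-labelled array came within 2 log2 of a KO array, and the mean difference was -3.70 ± 0.35 (adjusted p = 6.47e-05), with -3.92 and -2.06 in the wide and narrow pairs. Cyp2j12, a cytochrome P450 of the arachidonate-oxidising 2J family, lay at 7.43 to 9.21 and 4.16 to 6.89 (-3.41 ± 0.37). Gk5, a glycerol kinase family member of sebocytes and skin, lay at 9.04 to 10.34 and 3.54 to 7.73 (-3.32 ± 0.51), with -3.06 and -3.34 in the pairs. Gabrp, a GABA receptor subunit of secretory epithelia, lay at 7.85 to 11.56 and 6.21 to 7.44 (-2.82 ± 0.32), and its lowest KO value was the narrow array, 2.60 below its partner. Also among these 12 were Abhd3 (-2.86 ± 0.31), a phospholipase, Lipk (-2.36 ± 0.28), an epidermal lipase, Pecr (-2.25 ± 0.37), a peroxisomal trans-2-enoyl-CoA reductase, and Clca3a2 (-2.19 ± 0.29). Pecr differed by -2.93 and -2.23 and Clca3a2 by -1.92 and -1.68 in the week 12 pairs. For Prxl2a (-2.30 ± 0.62), Copz2 (-2.22 ± 0.39) and Tlcd4 (-2.21 ± 0.68) the narrow pair gave -1.18, -0.59 and -0.38. For Prxl2a and Tlcd4 the lowest values of all 16 arrays, 4.18 and 3.88, came from DKO week 16 replicate 1, and both stayed called without that array. The calls of Prxl2a and Tlcd4 were lost without any of 7 and 13 other single arrays (adjusted p up to 0.0689 and 0.108). Lower calls reached genes that are taken as constant, since Sdha, a mitochondrial dehydrogenase subunit, and Tbp, the TATA-binding protein, were each lower by 1.93 (SE 0.25 and 0.38), while Actb differed by 0.42 ± 0.18 (adjusted p = 0.126).

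Week 12 was then held out. The fit on weeks 4, 8 and 16 called 1300 genes higher and 1911 lower. Of the 1300, 77.7% were higher in the wide pair of week 12 and 52.5% in the narrow pair, and 41.2% were higher in both, against 25.6% of all genes. Of the 1911, 88.2% were lower in the wide pair and 56.8% in the narrow pair, and 51.8% in both, against 26.7%. The narrow pair, in which both arrays have the range of the other DKO-labelled arrays, thus gave a direction only slightly more often than not for the called genes as a whole. Genes with a difference over 2 log2 in the held-out fit held more often. There were 59 such genes called higher, of which 43 were higher in both pairs, with medians of 2.31 (wide) and 2.19 (narrow), and 92 called lower, of which 68 were lower in both, with medians of -1.84 and -0.46. The week 12 arrays are separate mice from those in the fit. In the narrow pair the numbers of both labels (KO 30, DKO 26) lie within 22 to 33. The wide pair (KO 17, DKO 27) is split by label number in the same way as the arrays of the fit.

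Of the 59 genes called higher with over 2 log2, 35 were higher by over 1 log2 in both week 12 pairs. Of these 35, 23 stood on a list of cornified envelope, stefin, protease, suprabasal, activated keratinocyte or antimicrobial genes, lists that hold 0.522% of all genes tested, and 15 lay in the epidermal differentiation complex, which holds 0.314%. The list genes were chosen with earlier results of these data known, so the share on the lists is no independent check. The genes in the complex include near-identical Sprr2, Lce1 and Lce3 copies and are not independent of one another. None of the 35 was an olfactory or vomeronasal receptor gene, a kind outside the gene lists that makes up 6.70% of all genes tested. With so small a share, 0 of 35 is no result about this kind. Of the 16 of the 59 that did not go the same way in both pairs, 1 stood on such a list (Stfa2l1), 0 lay in the complex and 5 were olfactory or vomeronasal receptor genes. Of the 92 genes called lower with over 2 log2, 23 were lower by over 1 in both pairs, among them Scgb1c1, Cyp2j12, Gk5, Gabrp, Ltf, Pecr, Clca3a2, Tmem97, Sdha and Rdh9, a retinol dehydrogenase family member.

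**Figure D5:**
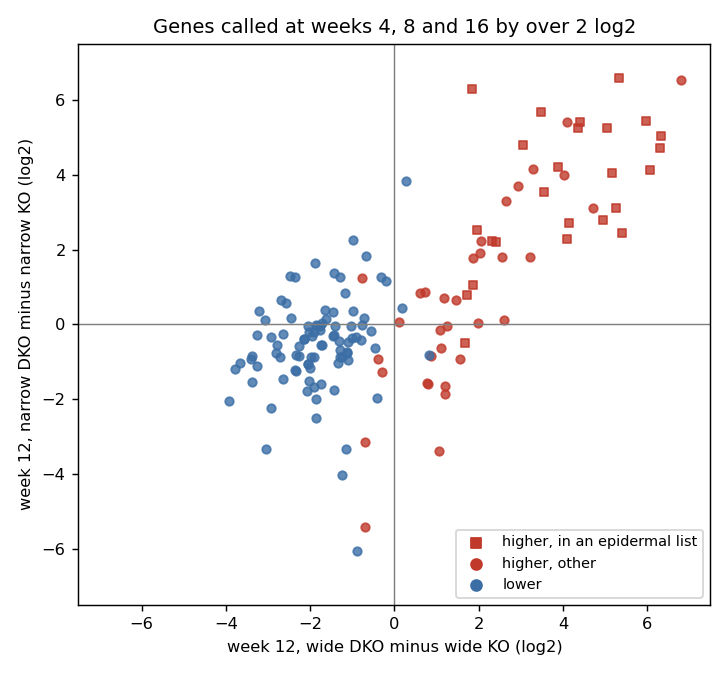
Week 12 differences of the 59 genes called higher and the 92 called lower with over 2 log2 at weeks 4, 8 and 16, with wide DKO minus wide KO on the x axis and narrow DKO minus narrow KO on the y axis, both in normalized log2; red genes were called higher and blue lower, and squares are members of the epidermal lists. Of the 25 epidermal squares 23 lie in the upper right with both differences over 1, and of the 92 blue genes 89 lie left of 0 on x and 69 below 0 on y, at medians of -1.84 and -0.46.

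Single weeks called far fewer genes, with 2 arrays on each side. At week 4, 22 genes (0.117%) were called, 9 higher and 13 lower, among them Cyp1b1, Defb6, Defb4, Klk7 and Ap2m1 higher and Scgb1c1, Lipk, Gabrp and Ltf lower. Ap2m1, a clathrin adaptor subunit, was 3.74 higher at week 4 but differed by -1.07 at week 12, and its call over all weeks was lost without any of 4 single arrays (adjusted p up to 0.0674). At week 8, 118 genes (0.628%) were called, led by Defb4 (5.88), Krt10 (4.11) and Krt1 (6.05). At week 12, where each group held 1 narrow and 1 wide array, 9 genes (0.0479%) were called in limma, all higher, and 1218 had an unadjusted p under 0.05. The text above describes 8 of them, Krt1, Krt10, Defb4, Rptn, Cxcl2, Sprr2d, Stfa1 and Cyp1b1, and the ninth was Rnase2b, an eosinophil-type ribonuclease family member named after its value was seen. At week 16, 222 genes (1.18%) were called, among them Krt1 (6.36), Defb4 (5.65), S100a8 (6.59), Saa3 (5.28) and Rdh9 (-4.06). Cyp1b1 and Defb4 were called in every single week. The single-week counts moved with single arrays. The count at week 4 was 0 without DKO week 4 replicate 1 or either KO array of that week and 229 without DKO week 4 replicate 2. At week 8 it was 3 without either KO array of that week and 452 without DKO week 16 replicate 1. At week 12 it was 0 without DKO week 12 replicate 1 and 30 without KO week 12 replicate 1, and at week 16 it was 0 without KO week 16 replicate 1 and 2228 without DKO week 16 replicate 2.

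Across weeks, the cornified envelope median was 0.75, 2.23, 1.82 and 1.20 at weeks 4, 8, 12 and 16, the epithelial antimicrobial median 0.29, 0.91, 1.26 and 1.71, and the sebaceous lipid median -0.36, -1.04, -0.47 and -0.76. Levels of S100a8, Saa3, Fpr2 and Cxcl2 were within 1 log2 of those of KO on average at week 4 and further apart at week 16, while Cyp1b1, Defb4, Defb6, Csta1, Cnfn and Scgb1c1 were apart at week 4. In the arrays labelled DKO, Saa3 read 8.74 and 8.98 at week 12 and 10.89 and 8.35 in replicates 1 and 2 of week 16. In the same order S100a8 read 10.86, 10.79, 12.28 and 9.91, Fpr2 7.62, 7.43, 8.93 and 7.01, and Cxcl2 8.70, 8.25, 10.89 and 7.78. The mean level of the antimicrobial list read 8.64, 8.60, 9.32 and 8.32. A difference between weeks was tested for each gene by limma's F test of genotype by week, which called 1 gene, Zfp991 (adjusted p = 0.0397), with 1418 at an unadjusted p under 0.05. For Krt1 the unadjusted p of that test was 0.000301, for Saa3 0.000326, for Fpr2 0.000153 and for S100a8 0.00152, and none passed the adjustment over all genes. Over all genes, 118 (0.628%) had every DKO-labelled array above every KO array and 217 (1.16%) had every one below, and 109 and 211 of these were called.

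Markers of tissues that a dissection could carry along were looked at too. Of 10 urothelial genes 0 were called, of 12 skeletal muscle genes 1 was higher, and of 10 fat cell genes Fabp4 was higher (0.77 ± 0.24, a call lost without any of 13 single arrays) and 1, Lpl, lower. Among 10 seminal vesicle and prostate genes 3 were higher and 1 lower, against 4.89% and 8.32% of all genes. Svs2 lay at 2.85 to 4.15 in KO and 3.73 to 5.33 in the arrays labelled DKO, and Pbsn at 2.67 to 3.44 and 2.96 to 4.40. The levels of Svs2 and Pbsn in every array lie below the KO median of all genes, and the part of array range in these calls was not tested.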

How the data were processed

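Expression was measured on 1 array for each of 16 preputial glands, 2 per genotype and week. The authors deposited log2 intensities per probe set, made with RMA per the submitters' processing notes, and the probe set definition is not given in the sources used here. Of 21212 probe sets, 18786 had 1 gene symbol, 6 had several and 2420 had no entry in the annotation table used. The probe set with the highest mean stood for a gene, which gave 18784 genes. The 16 arrays were quantile-normalized, and limma 3.58.1 (run in R 4.3.3) fitted a mean for each of the 8 groups. The contrast was the mean of the 4 within-week differences of DKO minus KO, tested two-sided with a Benjamini-Hochberg adjusted p under 0.05 over all genes. Values after ± are standard errors. The script was tested on simulated data. With 2 arrays per group, the number of arrays limits the precision, and since the labels say only that glands of 2 mice were used, p-values measure the spread between these samples.

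The naming rule took both targeted genes, the 12 most positive and 12 most negative differences among called genes without overlap and without predicted gene models, up to 4 genes of smallest adjusted p per list, the 5 of smallest p in the test of genotype by week and the 3 highest and 3 lowest per week. The text gives part of these, and further list members with levels or uncalled values, picked after their values were seen. The genes of the 32 lists, 443 of 492 measured, and the comparison itself were chosen with earlier results of these data known. Alternatives covered the normalization, low-value filter, model, covariates, arrays in the fit, replicate block and arrays left out. Promoters and gene order came from RefSeq (GRCm38.p6).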

Additional observations from a re-analysis of the deposited data

Results flagged for a closer look

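The range of values on KO week 12 replicate 2 stood apart from the other 7 KO arrays. Its standard deviation was 1.35, the nearest KO array was at 1.76, and the gap was 0.652 of the whole spread of the group, above Dixon's 95% critical value for 8 arrays. The opposite exception, DKO week 12 replicate 2, gave 0.519, which does not pass that value. Chance alone flags about 1 in 20 groups, and the cause was not tested.

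Zfp991, a zinc finger gene, was the only gene whose difference between genotypes differed between weeks after adjustment in limma's F test (adjusted p = 0.0397). The differences were 1.11, 1.84, 1.39 and -2.91 in successive weeks. The KO arrays lay between 6.20 and 7.44, and the arrays labelled DKO at 7.29 to 8.63 up to week 12 and at 4.22 and 4.82 in week 16. The test called 0 genes with normal scores, with a trended and robust fit, with array weights or with the replicate block.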

How the results depend on the processing

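The counts of called genes depended on the settings. Over weeks 4 to 16 the main count of 2481 went to 9314 without quantile normalization (2181 shared), 4831 with all 30 arrays in the fit (2473 shared), 3 with label number range as a covariate and 9 with array range as a covariate, and it stayed within 1.5 times in all other settings that kept every array or left out a whole week or a pair of arrays. Leaving out single arrays gave 1339 to 3882. Without quantile normalization 3526, 2504, 22 and 1939 genes were called at weeks 4, 8, 12 and 16. With all 30 arrays these were 1293, 1369, 105 and 1947, and the test of genotype by week called 139. Normal scores of the ranks gave 0, 18, 0 and 50. Array weights gave 198, 647, 20 and 46. Label number range as a covariate gave 0, 1, 29 and 0, and array range as a covariate 0, 1, 6 and 0. At week 12, a fit to the wide arrays alone called 2595 genes and a fit to the narrow arrays alone 0, each comparing 1 array with 1 and assuming that these vary like the other groups. The test of genotype by week called 0 with normal scores, a trended and robust fit, array weights, both covariates and the replicate block. Leaving out single arrays gave 0 to 229, 3 to 452, 0 to 30 and 0 to 2228 genes at weeks 4, 8, 12 and 16, and 0 to 100 for the test of genotype by week. Taking KO week 12 replicate 2 and DKO week 16 replicate 1 out together, an alternative chosen after seeing the data, gave 3669 over all weeks, 792, 981, 14 and 230 in the single weeks and 0 for the test of genotype by week.

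Of 85 called genes among the 96 analysed for the text, 72 were called whichever single array was left out, and 60 in every setting other than both covariates. Most were named for a small adjusted p or a large difference in the main fit, which by itself favours keeping a call. Array range as a covariate kept 6 calls and the sign of 83, and label number range kept 2 calls and the sign of 81. Signs turned as follows. With label number range as a covariate Itga6 was 0.91, Stfa2l1 -0.62, Elovl3 0.21 and Gclm 0.13, with array range as a covariate Itga6 was 0.38 and Cd8b1 -0.12, and without quantile normalization Krt14 was -0.68 and Ngp 0.68. The cause of these changes was not tested.

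The replicate numbers were not taken to pair the samples. Across genes, the deviations of same-numbered arrays correlated at -0.015, -0.016, -0.188 and 0.034 at weeks 4, 8, 12 and 16. At week 12 the same-numbered arrays differ in range. These values cannot settle whether the samples were paired. With the replicate block 2335 genes were called over weeks 4 to 16 (2280 shared with the fit without it), 16, 108, 8 and 154 in the single weeks and 0 in the test of genotype by week. With the week 12 numbers of DKO crossed, a pairing chosen after seeing the data, the replicate block gave 2399, 21, 103, 6, 182 and 0.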
